A study of Mus musculus with 6 samples.

Results

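Transcripts of 10 genes that mark the endothelium of the liver, namely Stab1, Stab2, Lyve1, Clec4g, Fcgr2b, Kdr, Pecam1, Cd34, Rspo3 and Wnt2, were followed in the liver transcriptome of mice lacking Vps15 in hepatocytes. They were taken by name from a table of 56305 mouse genes, and all 10 were found there, passed the filter on low values and had at least 29 reads in every library. RNA-Seq was done on liver from 3 WT mice and 3 Vps15LKO mice, all of them males of 5 weeks with free access to food whose livers were taken at ZT6, and each liver gave 1 library. Vps15LKO mice are AlbCre+;Vps15 f/f, so that Vps15, the regulatory subunit of class 3 PI3K, is deleted by a Cre recombinase under the albumin promoter, which is active in hepatocytes and their precursors and not in endothelial cells. The control mice are given as WT, and whether they carried floxed Vps15 alleles is not stated in the labels. The livers came from different mice, so the errors below are the spread between mice.

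Liver sinusoidal endothelial cells are fenestrated cells without a continuous basement membrane that line the sinusoids and clear macromolecules from the blood through scavenger and lectin receptors. Continuous endothelium of arteries, veins and capillaries in other tissues carries CD34 at its surface, whereas the normal sinusoid has little of it. Endothelial cells around the central vein secrete Wnt ligands and R-spondins, which act on neighbouring hepatocytes and maintain their pericentral gene expression.

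The libraries held between 16137093 and 18110223 reads on genes. The authors divided the counts by size factors of 0.742 to 0.801 in WT and 1.23 to 1.41 in Vps15LKO libraries, so that 1 read was worth 1.25 to 1.35 normalized read counts in WT and 0.707 to 0.810 in Vps15LKO liver. Pik3r4, which encodes Vps15, had normalized read counts of 508, 573 and 459.7 in WT and 341, 362 and 355 in Vps15LKO livers (log2 fold change −0.54, adjusted p = 0.0021, limma with Benjamini-Hochberg adjustment), and 0.19 with an adjusted p of 0.164 in limma when all libraries were scaled to the same total of reads. Calling required a fold of 1.2 or more together with an adjusted p under 0.05. Over the 15430 genes tested, 33% had lower and 33.5% had higher levels in Vps15LKO liver by this rule, 66.5% in all, and the values of 73.2% had no overlap between genotypes.

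The stretches of DNA just upstream of 4 of these genes are shown because they belong to the marker with the largest difference between genotypes (Cd34), to scavenger and lectin receptors called in opposite directions (Stab1 and Clec4g) and to the receptor with the largest decrease (Kdr). Each is the 250 bases before the transcript start in RefSeq on GRCm38.p6, read 5′ to 3′ on the strand of the gene: chr1:194938571-194938820 on the plus strand for Cd34, and on the minus strand chr14:31168642-31168891 for Stab1, chr8:3720652-3720901 for Clec4g and chr5:75978456-75978705 for Kdr. Capitals mark AGGAAG or its reverse complement CTTCCT, core letters bound by ETS family factors, which endothelial genes commonly use.
Cd34: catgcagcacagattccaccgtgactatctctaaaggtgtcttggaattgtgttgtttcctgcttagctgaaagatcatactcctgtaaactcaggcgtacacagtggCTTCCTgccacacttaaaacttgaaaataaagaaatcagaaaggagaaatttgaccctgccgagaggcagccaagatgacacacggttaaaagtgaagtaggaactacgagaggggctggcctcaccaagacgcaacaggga
Stab1: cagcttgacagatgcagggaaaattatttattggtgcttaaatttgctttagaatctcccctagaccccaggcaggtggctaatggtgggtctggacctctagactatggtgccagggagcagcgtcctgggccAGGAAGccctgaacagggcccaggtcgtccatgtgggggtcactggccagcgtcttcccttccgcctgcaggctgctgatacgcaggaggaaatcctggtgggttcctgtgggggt
Clec4g: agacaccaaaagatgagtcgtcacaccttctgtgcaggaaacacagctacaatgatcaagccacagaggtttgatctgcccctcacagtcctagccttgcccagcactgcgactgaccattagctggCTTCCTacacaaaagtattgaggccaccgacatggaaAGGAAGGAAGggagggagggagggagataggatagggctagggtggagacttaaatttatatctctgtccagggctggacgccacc
Kdr: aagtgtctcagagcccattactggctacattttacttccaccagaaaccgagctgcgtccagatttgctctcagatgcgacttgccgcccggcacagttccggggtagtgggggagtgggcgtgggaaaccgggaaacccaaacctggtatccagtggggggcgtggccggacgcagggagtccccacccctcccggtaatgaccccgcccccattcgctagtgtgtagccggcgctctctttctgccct
Such letters occurred once upstream of Cd34, Stab1 and Stab2 and 3 times upstream of Clec4g, with overlap between the last pair of matches there, and not upstream of Kdr, Fcgr2b or Wnt2. A match was thus present in 4 of the 7 markers with a RefSeq window, and in 29.5% of all 32851 windows of this length. The E-box CACGTG, which Bmal1–Clock binds, was in 0 of the 7 windows and in 6.02% of all windows. The GATA letters GATAA or TTATC were in 1 of the 7, that of Wnt2, and in 22.6% of all windows. Both strands were read. These are matches of letters and not measured sites. Lyve1, Pecam1 and Rspo3 had no window.

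The 10 markers did not move together. In Vps15LKO liver, 4 were called higher (Stab1, Lyve1, Pecam1 and Cd34), 5 were called lower (Stab2, Clec4g, Fcgr2b, Kdr and Wnt2) and Rspo3 was not called. This makes 9 of 10 called (90%), against 66.5% of all genes tested. The values of 9 of the 10 had no overlap between genotypes, against 73.2% of all genes (36.8% lower and 36.4% higher). The median log2 fold change of the markers was −0.022, beside −0.017 for all genes tested. The differences ranged from a 9.42-fold higher mean for Cd34 to 0.536 of the WT mean for Kdr and Wnt2. In whole tissue, fewer cells of a type and less RNA per cell cannot be told apart.

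**Figure D1:**
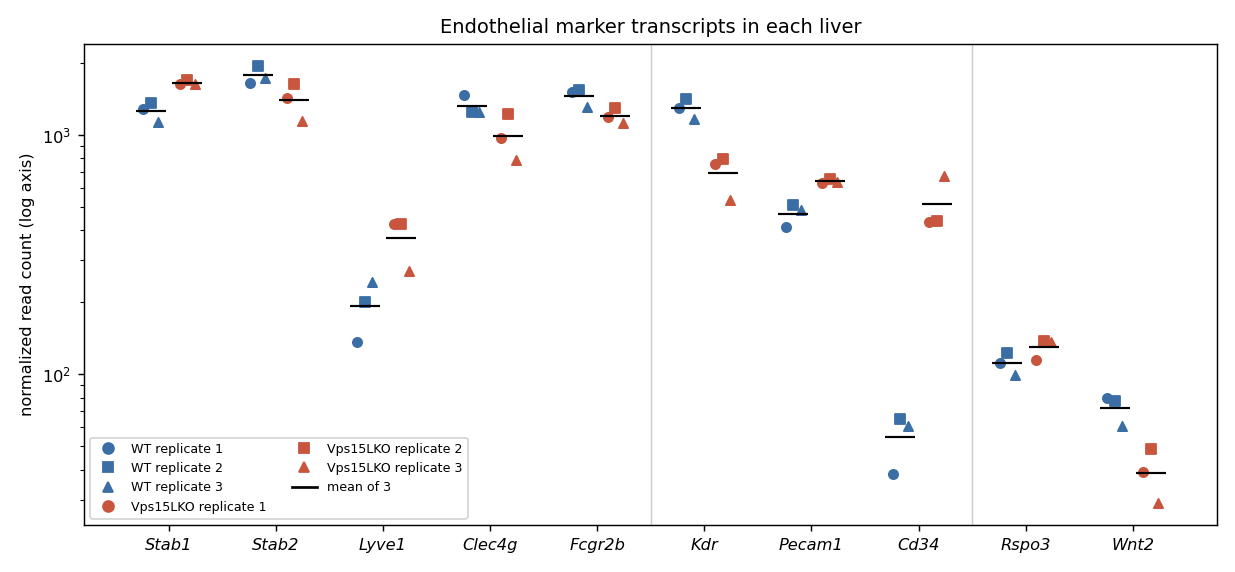
Normalized read count of each endothelial marker in each of the 6 livers, on a log axis, with WT in blue, Vps15LKO in red, a symbol for each replicate and a bar at the mean of 3. Grey lines part the scavenger and lectin receptors, the general vascular genes and the secreted Wnt pathway ligands, and the Cd34 points of Vps15LKO livers, from 435 to 674, lie far above those of WT livers, from 38.5 to 65.0.

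Among the scavenger and lectin receptors of sinusoidal endothelium, the related stabilins differed in direction. Stab1 (chr14:31139013-31168641), which encodes stabilin-1, a scavenger receptor of sinusoidal endothelium and some macrophages, had normalized read counts of 1284, 1364 and 1140.4 in WT and 1633, 1694 and 1633 in Vps15LKO livers. Every Vps15LKO liver was above every WT liver, with means of 1263 ± 113 and 1654 ± 35.3 (SD, n = 3 livers each, as for all means below). The log2 fold change of 0.39 had a standard error of 0.09 (adjusted p = 0.00555, limma with Benjamini-Hochberg adjustment).

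Stab2 (chr10:86841198-87008025) encodes stabilin-2, the receptor through which the sinusoid takes up hyaluronan. Its counts were 1651, 1949 and 1740.3 in WT and 1428, 1635 and 1144 in Vps15LKO livers. The genotypes did not overlap, but the highest Vps15LKO liver lay just below the lowest WT liver, and the means were 1779.9 ± 153 and 1403 ± 246. The log2 fold change of −0.36 had a standard error of 0.14 (adjusted p = 0.0475 in limma).

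Lyve1 (chr7:110850607-110863239), a hyaluronan receptor of sinusoidal and lymphatic endothelium, had counts of 137, 201 and 244 in WT and 425, 424 and 269 in Vps15LKO livers. The third Vps15LKO liver was close to the highest WT liver while the others were well above it, and the means were 194 ± 54.1 and 373 ± 89.3. Its log2 fold change of 0.95 had a standard error of 0.24 (adjusted p = 0.00808 in limma).

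Clec4g (chr8:3707064-3720651) encodes LSECtin, a C-type lectin of sinusoidal endothelium. It had 1476, 1244 and 1244 normalized read counts in WT and 972, 1224 and 784 in Vps15LKO livers. The second Vps15LKO liver nearly reached the lower WT livers, and the means were 1321 ± 134 and 993 ± 220.4. The log2 fold change of −0.43 had a standard error of 0.16 (adjusted p = 0.0397 in limma).

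Fcgr2b (chr1:170958617-170976547), the inhibitory Fc receptor with which sinusoidal cells remove small immune complexes, had counts of 1513, 1538 and 1313 in WT and 1195, 1304 and 1120.3 in Vps15LKO livers. The gap between the genotypes was small, with means of 1454 ± 123 and 1206 ± 92.3. Its log2 fold change of −0.27 had a standard error of 0.10 (adjusted p = 0.0429 in limma). Of the 50-base words of its transcripts, 4.38% also occur in other genes, most of them in Fcgr3 (2.92%), so a small part of its reads could be shared.

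These 3 decreases lay near the threshold. Leaving out any 1 liver but the second Vps15LKO liver ended the calls of Stab2 and Clec4g, with log2 fold changes of −0.47 to −0.22 for Stab2 and −0.59 to −0.27 for Clec4g over the 6 fits. The call of Fcgr2b ended without WT replicate 1 or 2 or Vps15LKO replicate 1 or 3, with log2 fold changes of −0.34 to −0.22. Stab1 and Lyve1 kept their calls in each of these fits.

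The general vascular genes differed in direction and included Cd34, which had the largest difference of the 10. Kdr (chr5:75932827-75978458) encodes VEGFR2, the main signalling receptor for VEGF-A on endothelial cells. Its counts were 1301, 1419 and 1173 in WT and 759, 792 and 535 in Vps15LKO livers. The highest Vps15LKO liver was far below the lowest WT liver, and the means were 1298 ± 123 and 695 ± 139.5. The log2 fold change of −0.92 had a standard error of 0.16 (adjusted p = 0.000831, limma with Benjamini-Hochberg adjustment). Before scaling, the reads overlapped, with 981, 1136 and 870 in WT and 994, 977 and 757 in Vps15LKO libraries.

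Pecam1 (chr11:106654217-106750628), which encodes the junctional adhesion molecule CD31, had counts of 412, 509.6 and 487 in WT and 629, 654 and 639 in Vps15LKO livers. The Vps15LKO livers were close to each other and all above WT, with means of 469.5 ± 50.8 and 641 ± 12.5. Its log2 fold change of 0.45 had a standard error of 0.10 (adjusted p = 0.00433 in limma).

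Cd34 (chr1:194938819-194961279) encodes a sialomucin of continuous endothelium and of blood progenitors. It had 38.5, 65.0 and 60.7 normalized read counts in WT and 435, 436 and 674 in Vps15LKO livers. Each Vps15LKO liver was far above every WT liver, and the means were 54.7 ± 14.2 and 515 ± 138. The log2 fold change of 3.22 had a standard error of 0.24 and a 95% interval of 2.66 to 3.77 (adjusted p = 1.00e-05 in limma). It rested on 29 to 52 reads in WT and 538 to 953 reads in Vps15LKO libraries, and was between 2.99 and 3.36 with each liver left out in turn.

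Of the secreted Wnt pathway ligands of central vein endothelium, Wnt2 was called lower and Rspo3 was not called. Rspo3 (chr10:29452416-29535867), an R-spondin that strengthens Wnt signalling by keeping Wnt receptors at the cell surface, had counts of 111, 122 and 99.8 in WT and 115, 139 and 137 in Vps15LKO livers. The first Vps15LKO liver lay within the WT range, and the means were 111 ± 11.3 and 130.1 ± 12.9. Its log2 fold change of 0.23 had a standard error of 0.14 (adjusted p = 0.197 in limma), and the 95% interval from −0.11 to 0.56 does not show that the genotypes were alike.

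Wnt2 (chr6:17988940-18030585), a canonical Wnt ligand, had counts of 79.6, 77.4 and 60.7 in WT and 38.9, 48.6 and 29.0 in Vps15LKO livers. All Vps15LKO livers were below all WT livers, with means of 72.6 ± 10.4 and 38.9 ± 9.81. The log2 fold change of −0.90 had a standard error of 0.23 (adjusted p = 0.00799 in limma). It rested on few reads, between 41 and 62 per library, and the reads before scaling overlapped, with 60, 62 and 45 in WT and 51, 60 and 41 in Vps15LKO libraries.

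The direction of several markers rested on how libraries were scaled. With equal total reads in all libraries, the median log2 fold change over the genes tested was higher by 0.72 and came to 0.70, and that of the markers also came to 0.70. Under it, 0 markers were called lower and 7 higher, where 11.1% of all genes were lower and 66.8% higher. Stab2, Clec4g and Fcgr2b then had log2 fold changes of 0.37, 0.30 and 0.46, of which Stab2 and Fcgr2b were called higher, and Rspo3 had 0.95 and was called higher. Kdr and Wnt2 had −0.19 each and were not called.

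With quantile normalization, 2 markers were called lower (Kdr and Wnt2, −0.72 and −1.55) and 4 higher, where 37.6% of all genes were lower and 30.4% higher. Stab2 had −0.00 under it, Clec4g −0.17, Fcgr2b 0.03 and Rspo3 −0.17, and none of these was called. The median of all genes tested was −0.10 under this setting, so Stab2 and Fcgr2b then lay above the typical gene. Stab1, Lyve1, Pecam1 and Cd34 were called higher under every scaling tried, with log2 fold changes for Cd34 from 2.98 to 3.93.

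**Figure D2:**
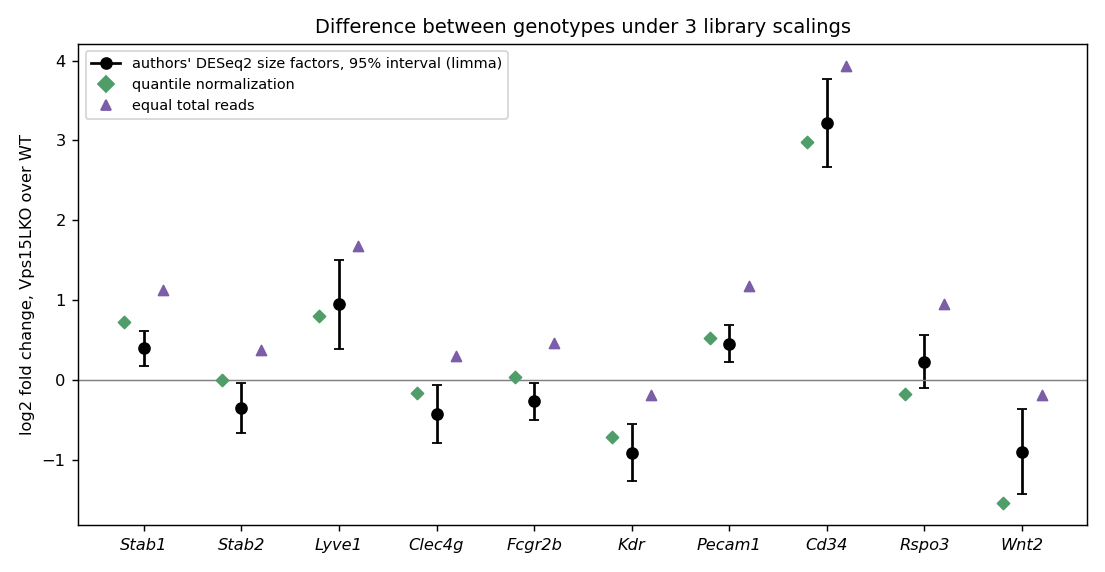
Log2 fold change of each marker, Vps15LKO over WT, with the authors' size factors (black points, bars are the 95% limma interval), with quantile normalization (green diamonds) and with equal total reads (purple triangles). The 4 markers called higher stay above 0 under all 3 scalings, Kdr and Wnt2 stay below 0, and Stab2, Clec4g, Fcgr2b and Rspo3 have values on both sides of 0 or at 0.

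A ratio taken within 1 library does not depend on the size factor of that library, apart from the pseudocount. Each marker was therefore set against the mean log2 level of 20 pan-endothelial genes that are not among the 10, such as Cdh5, which encodes VE-cadherin, and Tie1. On the log2(normalized read count + 1) scale this reference was 8.52 ± 0.05 in WT and 8.54 ± 0.07 in Vps15LKO livers, a difference of 0.02 (exact permutation p = 0.7, two-sided, n = 3). The mean holds genes that went both ways, with log2 fold changes from −1.44 to 2.08 and a median of −0.12. The level of the reference does depend on the scaling, and under equal total reads 15 of the 20 genes were called higher and 1 lower.

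Relative to this reference, the log2 ratio of Cd34 was −3.17, −2.53 and −2.58 in WT and 0.29, 0.16 and 0.87 in Vps15LKO livers. The ratio was thus below 0 in each WT liver and above 0 in each Vps15LKO liver, a difference of 3.20 (standard error 0.30). Kdr differed the other way, with ratios of 1.88, 1.90 and 1.67 in WT and 1.09, 1.02 and 0.54 in Vps15LKO livers, a difference of −0.93. Wnt2 differed by −0.92, Clec4g by −0.45, Stab2 by −0.37 and Fcgr2b by −0.29, while Lyve1 differed by 0.93, Pecam1 by 0.43 and Stab1 by 0.37. Rspo3 differed by 0.21, with its highest WT ratio (−1.63) just below its lowest Vps15LKO ratio (−1.62).

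None of the 10 ratios overlapped between genotypes, and neither did the same ratio of 71.5% of all genes tested. Each of the 10 therefore had an exact permutation p of 0.1 (two-sided, 3 livers against 3), which is the smallest this design allows, and 0.1 after Benjamini-Hochberg adjustment over the 10. With the median of the 20 genes as the reference in place of their mean, 7 of the 10 were without overlap, beside 68.4% of all genes tested. The differences of Stab2, Clec4g and Fcgr2b were then −0.11, −0.19 and −0.02, with overlap, so their decreases relative to other endothelial genes rested on the choice of reference. Kdr and Wnt2 differed by −0.67 and −0.66 with this reference, Stab1 by 0.64, Pecam1 by 0.70, Lyve1 by 1.19, Cd34 by 3.46 and Rspo3 by 0.47.

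**Figure D3:**
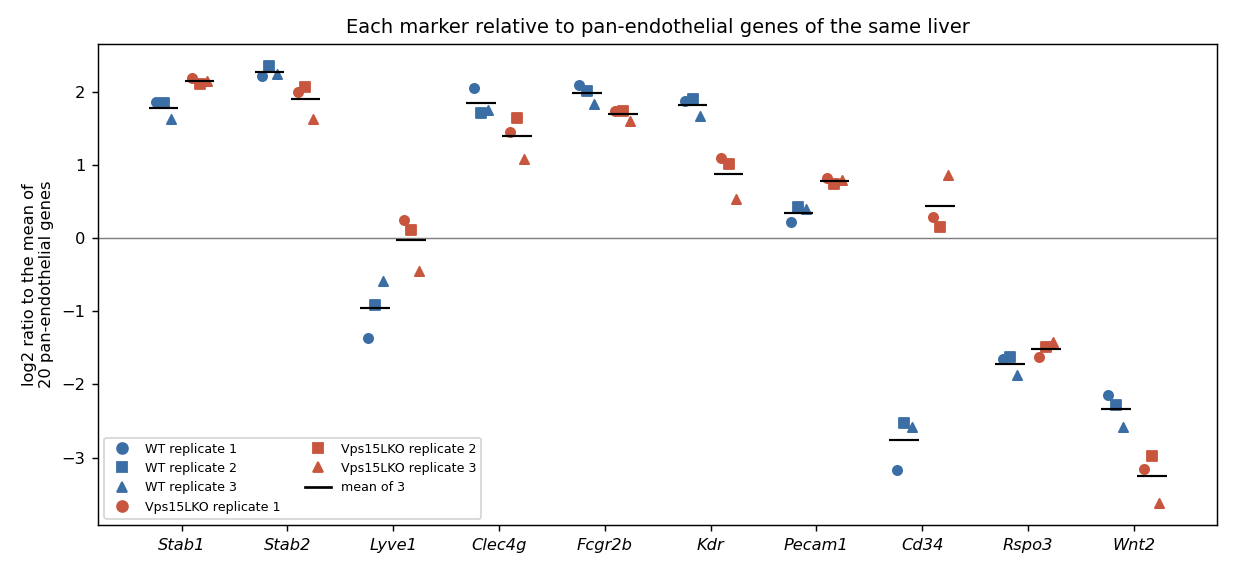
Log2 ratio of each marker to the mean of 20 pan-endothelial genes in the same liver, with WT in blue, Vps15LKO in red, a symbol for each replicate and a bar at the mean of 3. For all 10 markers the groups of 3 points are apart, by a hair for Rspo3 and by the widest distance for Cd34.

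Ratios between markers, 9 in all, were taken in the same way. Stab1 over Stab2 was −0.36, −0.51 and −0.61 in WT and 0.19, 0.05 and 0.51 in Vps15LKO livers, so that the ratio changed sign between the genotypes, on a scale not corrected for the lengths of the transcripts. Lyve1 over Stab2, a pair of hyaluronan receptors, differed by 1.30, and Cd34 over Pecam1 by 2.76. Against Pecam1, Stab2 differed by −0.81, Kdr by −1.37 and Wnt2 by −1.36. These 6 ratios did not overlap between genotypes, with an exact permutation p of 0.1 (two-sided, n = 3) and 0.15 after Benjamini-Hochberg adjustment over the 9, and no share over all pairs of genes was computed.

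Ratios among the sinusoidal receptors called lower overlapped between genotypes. Clec4g over Stab2 differed by −0.07 (exact permutation p = 0.8, n = 3) and Fcgr2b over Stab2 by 0.09 (exact permutation p = 0.5, n = 3). Rspo3 over Pecam1 differed by −0.23, also with overlap (exact permutation p = 0.3, n = 3). A p above the threshold in 3 livers against 3 does not show that these ratios were equal.

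Per kilobase of exon, which allows levels to be compared between genes, Clec4g was the most abundant marker in both genotypes, with 537 ± 54.3 normalized read counts per kilobase in WT and 403 ± 89.5 in Vps15LKO liver. Fcgr2b came next (251 ± 21.3 and 208 ± 15.9). In WT liver the order continued with Stab2 (203), Kdr (144), Stab1 (123), Pecam1 (75.4), Lyve1 (66.4), Rspo3 (36.0), Wnt2 (32.2) and Cd34 (7.50). The ranges of the 3 livers overlapped between Kdr and Stab1, Pecam1 and Lyve1, and Rspo3 and Wnt2, and the other neighbours were apart.

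In Vps15LKO liver the order after Fcgr2b was Stab1 (161), Stab2 (160.2), Lyve1 (128), Pecam1 (103), Kdr (77.0), Cd34 (70.7), Rspo3 (42.1) and Wnt2 (17.2) per kilobase. Kdr thus went from the fourth to the seventh place, and Cd34 from the tenth to the eighth. Neighbours overlapped from Stab1 to Pecam1 and between Kdr and Cd34, so these places are not distinct.

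**Figure D4:**
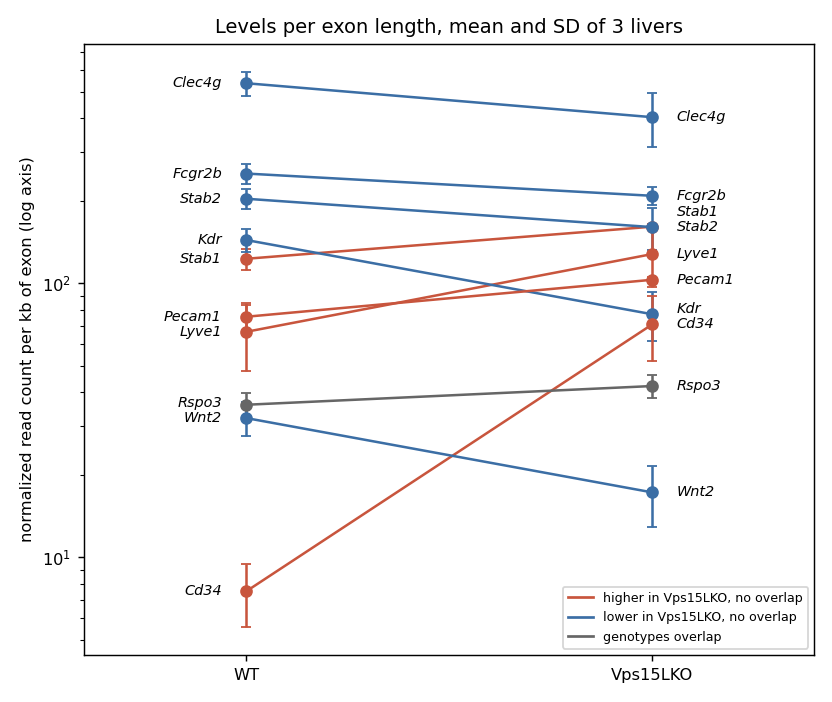
Mean normalized read count per kilobase of exon of each marker in WT and Vps15LKO liver, on a log axis, with bars for the SD of 3 livers and lines joining the genotypes. Red lines mark genes higher and blue lines genes lower in Vps15LKO liver without overlap, grey marks Rspo3, and the steepest line is that of Cd34, from 7.50 to 70.7.

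The livers of 1 genotype also differed from each other. Vps15LKO replicate 3 was the lowest of its genotype for 7 markers (all 5 scavenger and lectin receptors, Kdr and Wnt2) and the highest for Cd34, and Vps15LKO replicate 2 was the highest for 8. The same replicate 3 had the lowest summed level of 10 hepatocyte markers (846408, against 1058362 and 1286353) and the highest of 6 cholangiocyte markers (22998, against 15333 and 11980.1). Among WT livers, replicate 2 was the highest for 7 markers. What these differences between mice had to do with the markers was not tested.

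Other endothelial genes were called in both directions, in shares that differed between lists and scalings. Of 20 pan-endothelial genes, 6 were called lower and 5 higher, with a median log2 fold change of −0.12 beside −0.02 for all genes tested, and the counts under equal total reads (1 and 15) are those given above. Cd93, a C-type lectin-like endothelial receptor, went from 165 ± 28.7 to 699 ± 103 normalized read counts (log2 fold change 2.08, adjusted p = 9.53e-06 in limma), and Ecscr, an endothelial surface protein of cell migration, from 65.3 ± 3.23 to 271 ± 51.6 (2.02). S1pr1, a sphingosine 1-phosphate receptor that steadies vessels, had 1459 ± 180.5 in WT and 538 ± 77.9 in Vps15LKO liver (−1.44), and Ptprb, the endothelial phosphatase VE-PTP, had 1818 ± 226 and 921 ± 132 (−0.98), although Ptprb was not called under equal total reads.

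Among 14 tested sinusoidal genes other than the 10, 6 were called lower and 3 higher, with a median of −0.06. Under equal total reads 3 were lower and 9 higher, with a median of 0.66 beside 0.70 for all genes. Ehd3, a membrane-trafficking protein, and Dnase1l3, a secreted DNase, were lower, with log2 fold changes of −1.19 and −1.13. Clec1b, the lectin CLEC-2, and Flt4, the VEGF-C receptor, were higher, with 1.22 and 0.88. Which cells the Clec1b reads came from was not tested, and 10 of 12 macrophage markers were also called higher. The list held calls in both directions under either scaling.

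Genes of continuous and activated endothelium were mostly called higher. Of 17 tested, 13 were called higher and 1 lower, with a median of 1.04, and under equal total reads 16 were higher and 0 lower, while with quantile normalization 11 were higher and 1 lower. Of the 13 called higher, 3 (Sele, Ly6c1 and Esm1) were under 20 normalized read counts in every WT liver and passed the filter only through the Vps15LKO livers, so they could only be called higher, and their values are given as a description. Sele, which encodes E-selectin, had at most 1 read in a WT library and normalized read counts of 49.6, 50.2 and 37.5 in Vps15LKO livers, at least 11.7-fold higher than the 3 reads per library taken as the floor. Ly6c1, a surface antigen of capillary endothelium and monocytes, had 6.93 ± 1.73 in WT and 72.3 ± 5.39 in Vps15LKO liver. Selp, which encodes P-selectin, was the gene called lower (−0.84) and was not called under equal total reads. Which cells of the whole tissue made these transcripts was not tested, and the macrophage, stellate and cholangiocyte lists were also mostly called higher.

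Of the 55 genes on these 3 endothelial lists, 51 were tested, of which 13 were called lower, 21 higher and 17 in neither direction. Under equal total reads these counts were 4, 40 and 7, and with quantile normalization 14, 20 and 17. Over all genes tested, 33% were lower and 33.5% higher with the authors' size factors and 11.1% and 66.8% under equal total reads, so no share particular to endothelial genes is read from these counts.

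**Figure D5:**
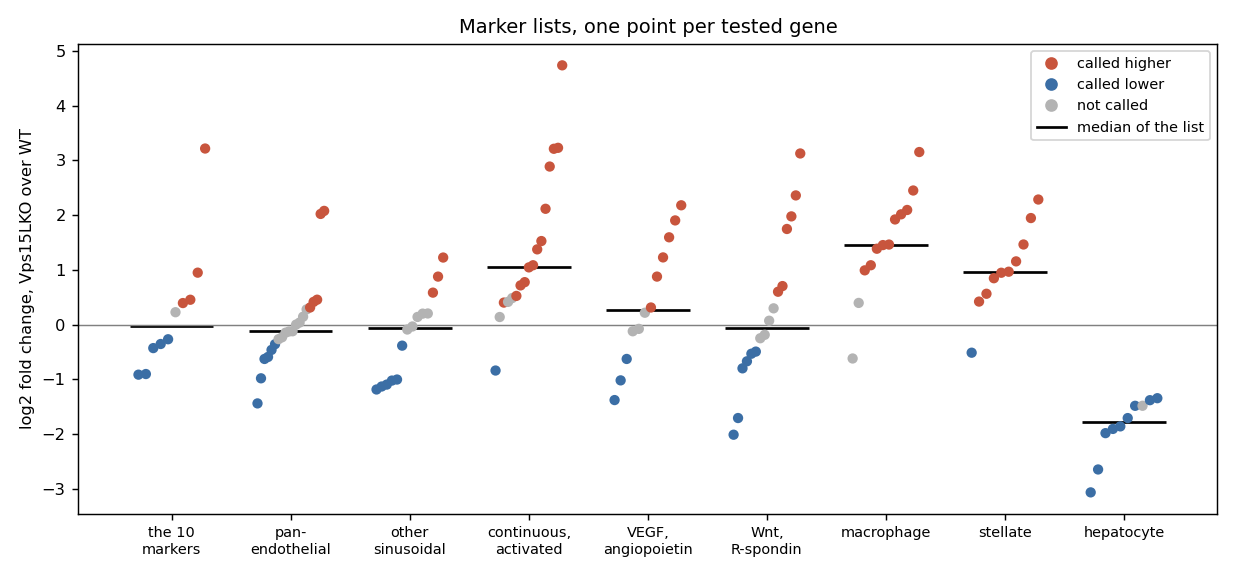
Log2 fold change, Vps15LKO over WT, of each tested gene of 9 lists, with red for called higher, blue for called lower, grey for not called, and a bar at the median of the list. With the authors' size factors the 10 markers and the pan-endothelial and sinusoidal lists spread on both sides of 0, whereas the continuous and activated, macrophage and stellate lists lie mostly above 0 and the hepatocyte list below it.

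Around Kdr, the VEGF and angiopoietin genes were also mixed, with 3 of 12 tested called lower and 6 higher and a median of 0.26, and 2 lower and 9 higher under equal total reads. Vegfa, a ligand of VEGFR2, had 1860.4 ± 246 normalized read counts in WT and 912 ± 29.1 in Vps15LKO liver (log2 fold change −1.02, adjusted p = 6.58e-05 in limma). Nrp1, a co-receptor of VEGFR2, was also called lower (1867 ± 451 and 706 ± 79.9, −1.38). Angpt1, a ligand of the Tie2 receptor, and Vegfd, a ligand of VEGFR3, were higher, with log2 fold changes of 2.18 and 1.90 at low levels (at most 95.5 normalized read counts in a liver), and Angpt1, at most 16.2 in a WT liver, passed the filter only through the Vps15LKO livers. The lower call of the receptor Kdr thus stood beside lower calls of its ligand and co-receptor, and all of these but Kdr kept the call under equal total reads.

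Around Rspo3 and Wnt2, 6 of 16 tested genes of the Wnt and R-spondin axis were called lower and 6 higher, with a median of −0.06. Under equal total reads 2 were lower and 9 higher, with a median of 0.67 beside 0.70 for all genes. Notum, a secreted Wnt deacylase and feedback inhibitor, had 1020.4 ± 144 normalized read counts in WT and 255 ± 60.9 in Vps15LKO liver (log2 fold change −2.01, adjusted p = 2.73e-05 in limma). Lgr4, a receptor of R-spondins, had 1380.3 ± 129 and 425 ± 72.2 (−1.71). Wnt4, a Wnt ligand, and Dkk3, a secreted protein of the Dickkopf family, were higher, with 2.36 and 3.13. Rspo2 and Rspo4 were at 0 reads in all 6 libraries, and Rspo1 stayed below the filter.

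Several of the 10 markers are also made by other cell types. Stab1, Fcgr2b and Lyve1 can come from macrophages, and 10 of 12 macrophage markers were called higher and 0 lower (median 1.46), with a summed level of 10667 to 12377 in WT and 36990.5 to 40997 in Vps15LKO livers. Fcgr2b is also a B cell gene. Of the B cell markers 3 were tested and 2 called higher, Cd79b and Cd22 (1 higher and 1 lower with quantile normalization), while Cd79a was not called (21.2 to 45.8 normalized read counts in WT and 12.0 to 25.2 in Vps15LKO livers). Ms4a1 and Pax5 stayed below the filter. Pax5 was lower without overlap (17.8 ± 1.67 in WT and 11.6 ± 1.04 in Vps15LKO livers), and Ms4a1 overlapped (9.54 ± 1.65 and 6.87 ± 2.13). Lyve1 also marks lymphatic vessels, where 3 of 4 tested markers were called higher and 1 lower, with a summed level of 4709.8 to 6294 in WT and 5305 to 6160.4 in Vps15LKO livers. Most of this sum came from Prox1, Reln and Flt4, which hepatocytes, stellate cells and sinusoidal cells also make. Of the other 3 markers, Pdpn had 13.4 ± 2.82 in WT and 29.6 ± 4.98 in Vps15LKO livers and passed the filter only through the latter, Mmrn1 was at 0 in all 6 libraries and Ccl21a at 0 in the WT libraries and at most 3 reads in a Vps15LKO library.

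Cd34 is shared with blood progenitors. Of 6 tested markers of progenitors and red cells, 1 was called lower and 1 higher (1 and 5 under equal total reads, 3 and 2 with quantile normalization), with a summed level of 4227 to 6117 in WT and 5247 to 7236 in Vps15LKO livers, most of it from the haemoglobin genes Hba-a1 and Hbb-bs. Tal1, a transcription factor of blood progenitors that endothelial cells also make, was called higher (20.9 ± 0.831 in WT and 35.7 ± 9.08 in Vps15LKO livers, log2 fold change 0.71), and Klf1, a red cell factor, was called lower (−2.32) but passed the filter only through the WT livers. Kit, the progenitor receptor, was not called (166 to 236 in WT and 163 to 193 in Vps15LKO livers), and Gata1 was at 0 in the WT libraries. Pecam1 is shared with platelets, where 3 of 3 tested markers of 6 listed were called higher (1 with quantile normalization), of which Pf4 passed the filter only through the Vps15LKO livers, and the summed level went from 127 to 163 in WT to 298 to 342 in Vps15LKO livers. Of those below the filter, Gp1ba (8.75 ± 2.96 in WT and 6.69 ± 3.34 in Vps15LKO livers) and Gp9 (2.21 ± 1.59 and 1.56 ± 0.862) overlapped between genotypes. Ppbp was higher without overlap (7.80 ± 3.32 and 13.3 ± 1.95). Cd34 can also be made by mesenchymal cells, and 9 of 10 stellate cell markers were called higher and 1 lower (10187 to 11588 summed in WT and 18349 to 19079.6 in Vps15LKO livers).

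Of the remaining lists, 6 of 6 cholangiocyte markers were called higher, of which Cldn4 passed the filter only through the Vps15LKO livers, and their summed level was 663 to 791 in WT and 11980.1 to 22998 in Vps15LKO livers. Of 10 hepatocyte markers, 9 were called lower. The hepatocyte markers summed to 2936214 to 3293266 normalized read counts in WT livers and to 846408 to 1286353 in Vps15LKO livers. The part of any of these cell types in the values of the 10 markers was not tested.

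Reads of genes on the opposite strand could also enter the counts, since whether the counting used strand is not given in the sources used here. The exons of Stab1, Stab2, Clec4g, Fcgr2b, Cd34 and Rspo3 share between 112 and 404 bases with those of an opposite gene. Gm16897, antisense to Cd34, had normalized read counts of 9.28, 12.5 and 5.39 in WT and 50.4, 56.7 and 56.6 in Vps15LKO livers, and was therefore higher in the same livers as Cd34. Gm16553, antisense to Clec4g, had 298, 262 and 232 in WT and 172, 253 and 124 in Vps15LKO livers. Lyve1, Kdr, Pecam1 and Wnt2 had no such overlap.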

How the data were processed

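RNA-Seq of the livers of 3 WT and 3 Vps15LKO mice was analysed, with groups and replicate numbers from the labels. The authors used SOAPnuke to filter reads, HISAT2 to align them to GRCm38, featureCounts for counts per gene and DESeq2 for normalization (versions not given in the sources used here). The library kit marks strand, but how the counting treated strand and multi-mapped reads is not given in the sources used here. The deposited values are a signal, namely the reads of each gene over the size factor of the library, with no filter. All values (100% per library, within 0.01) were whole multiples of 1 read, so whole reads were recovered, and 0 columns were left unused.

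A gene was tested if 3 or more of the 6 livers had 20 or more normalized counts (15430 of 56305 genes). log2(normalized count + 1) was compared with limma 3.58.1 in R 4.3.3 (eBayes with a trend), and p-values were adjusted by Benjamini-Hochberg over every tested gene. Fold changes refer to that scale and are understated for low genes. Calls required a fold of 1.2 or more and an adjusted p under 0.05. On the recovered reads, edgeR 4.0.16 called 4822 genes lower and 5383 higher, DESeq2 1.42.0 called 4829 and 5122, and limma voom called 4823 and 5362. The limma step was tested on simulated data with 200 changed genes and known size factors. That simulation could not check the choice of scaling, or data in which most genes differ. Log ratios within a library were compared with an exact permutation test over the livers. Replicates differed by more than sampling noise (mean chi-square per gene 14.0 to 36.4).

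Gene models and exon lengths came from GENCODE M21, which is on the build of the files, and upstream sequences from RefSeq. The markers and gene lists were chosen with earlier results of these data known. Besides the 10 markers, up to 2 called genes with the largest rise and 2 with the largest fall were named per endothelial, VEGF and Wnt list, and Pik3r4. Other cell types are given by their summed level, except B cells, for which 1 listed item is not reported here. The other genes named were chosen after their values were seen. Alternatives were other pseudocounts, filters, scalings, tests and fold thresholds, the median in place of the mean of the reference genes, each replicate left out, and replicate number as a block. Tables and plots were made with Python 3.11.15, numpy 2.4.6, pandas 2.3.3 and matplotlib 3.10.9.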

Additional observations from a re-analysis of the deposited data

How the results depend on the processing

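The number of markers called lower, 5 with the settings of the report, was 3 without a filter, with TMM, with DESeq2 and with limma voom, 2 with upper-quartile scaling, quantile normalization, limma without a trend and edgeR, and 0 with equal total reads or a fold of at least 2. It lay between 2 and 5 with 1 liver left out. The number called higher, 4, was 7 with equal total reads, 1 (Cd34) with a fold of at least 2, and 4 to 4 with 1 liver left out. Of 20 pan-endothelial genes, the 6 called lower became 1 with equal total reads or a fold of at least 2 and 5 to 7 with 1 liver left out. The 5 called higher became 15 and 2 under those settings and 3 to 6 with 1 liver left out, with the 3 reached without Vps15LKO replicate 3. The median log2 fold change of the markers was 0.70 with equal total reads, 0.10 with upper-quartile scaling, and −0.10 (without WT replicate 3) to 0.035 with 1 liver left out.

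The sign turned under equal total reads for Stab2 (0.37), Clec4g (0.30) and Fcgr2b (0.46), and with quantile normalization for Fcgr2b (0.030) and Rspo3 (−0.17). It also turned for log ratios between markers with 1 liver left out. Clec4g to Stab2 then lay between −0.18 and 0.060 (the latter without WT replicate 1), and Fcgr2b to Stab2 between −0.0004 (without Vps15LKO replicate 3) and 0.17. The cause was not tested. Kdr and Wnt2 lost their calls under equal total reads and with a fold of at least 2, and kept them in the other alternatives.

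Same-numbered livers did not deviate together (correlations −0.01, −0.01 and 0.05), and no label ties the numbers across genotypes. With replicate number as a block, 5 markers were called lower and 4 higher, and the median was −0.02. Groups of 3 mice were not searched for outlying samples, and 3 against 3 allows no exact permutation p below 0.1. Depth limits Wnt2, at 41 to 62 reads per library, and Cd34 in WT liver, at 29 to 52.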
